A study of Mus musculus with 7 samples.

Results

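A set of 9 genes of the neuronal cytoskeleton, of axon growth and of neuronal RNA binding were followed through whole mouse noses at embryonic day 14.5, 9 of the 30355 genes that all libraries listed under 1 identifier. They were the stathmins Stmn1, Stmn2, Stmn3 and Stmn4, the growth cone gene Gap43, the tubulin gene Tubb3, the microtubule-binding gene Dcx, and the neuronal RNA-binding genes Elavl3 and Elavl4. The members were chosen by name as genes of growing neurons, with earlier results of these libraries known. The measured values behind the choice were the UMIs (unique molecular identifiers, each standing for 1 captured transcript) of Stmn2 and Gap43 in cells outside the neuronal lineage, which are therefore described here without a test.

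The samples were 3-prime single-cell RNA libraries made on the 10x platform from noses dissociated with papain and collagenase, frozen and thawed. 5 libraries were labelled wild type (WT) and came from CD1 IGS embryos. The other 2 came from a single nose carrying ProKR2iCre and R26tdTomato (background B6;SJL with the allele Prokr2em1(cre)Cfe, and Cg for the reporter allele Gt(ROSA)26Sortm14(CAG-tdTomato)Hze/J), in which Cre made from the prokineticin receptor gene Prokr2 switches on a red fluorescent protein. The protocols describe data both with and without sorting from that nose, but the labels do not tie either kind to a library, so the libraries are called Prokr2Cre library 1 and Prokr2Cre library 2 and were neither averaged nor tested. Strain and genotype differ together between the WT and the Prokr2Cre libraries and cannot be told apart.

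WT replicate 3 shared 7386 cell barcodes with WT replicate 4, against at most 34 for any other pair, and was left out. The 6 libraries used held 31465 cells that passed a minimum of 500 genes and a maximum of 10% UMIs from mitochondrial genes, from 1111 in Prokr2Cre library 2 to 10496 in WT replicate 2, with a median of 5126.5 to 13692 UMIs per cell and 16773781 to 89800259 UMIs per library. Cells placed in the neuronal lineage by the gates given below, progenitors included, made up 211 of 1111 cells in Prokr2Cre library 2, which stood apart in this, against 61 of 1789 in Prokr2Cre library 1 and 75 of 3250 to 305 of 7790 in the WT replicates. These counts include every cell with at least 3 pan-neuronal markers. Among them are cells without olfactory markers, most of which also held mesenchyme markers, as given below. Such cells were 32 of the 75 in WT replicate 5 and 10 of the 211 in Prokr2Cre library 2. Levels are given as CPM, the UMIs of a gene per 1000000 UMIs of the same class of cells in the same library. Levels are compared between classes for the same gene, since how well a transcript is captured can differ between genes.

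Stathmins bind free tubulin dimers and promote the shortening of microtubules; Stmn1 is expressed in many dividing cells, while the other family members carry a membrane anchor and are typical of neurons. Gap43 lies under the membrane of growth cones, Tubb3 is the class III beta-tubulin of neurons, and Dcx stabilises microtubules in migrating and newly formed neurons. Elavl3 and Elavl4 bind messenger RNAs and are widely used as early neuronal markers. In the embryonic nose, olfactory neurons arise from progenitors that express proneural transcription factors such as Neurog1, and Gap43 is classically a gene of immature olfactory neurons whose axons are still growing, whereas Omp marks mature ones.

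In GRCm38 with the GENCODE vM21 annotation, the members were on 8 chromosomes. Stmn1 was at chr4:134468320-134473843 and Elavl4 on the same chromosome at chr4:110203722-110351909. Stmn2 was at chr3:8509360-8561606, Stmn3 at chr2:181306459-181314500, Stmn4 at chr14:66344296-66361680 and Gap43 at chr16:42248442-42340651. Tubb3 was at chr8:123411424-123422015, Dcx at chrX:143855842-143933311 and Elavl3 at chr9:22015005-22052023. No gene on the opposite strand overlapped any of them. On the same strand Stmn1 overlaps the miRNA gene Gm23634, Gap43 overlaps Mir6540, Tubb3 overlaps the protein-coding Gm20388 and Elavl3 overlaps the protein-coding Gm49318. None of these 4 was among the genes used here, and how reads in the shared stretches were counted is not given in the sources used here. Stathmins and tubulins belong to families with similar sequences, and the same holds for reads shared between such copies.

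Because 8 members were lower in progenitors than in the neurons that follow them, as shown further on, the promoter windows were read for the letters CAGCTG and CAGATG, forms of the E-box (CANNTG) that proneural factors are known to bind. Each window is the 250 bases before a transcription start in RefSeq's annotation of GRCm38.p6, and both strands were searched. 9 windows were found for 5 members, Stmn3, Tubb3, Elavl3, Dcx and Elavl4, and 3 that hold a match are shown 5′ to 3′ on the gene's strand with the matches in capitals, the first from Stmn3 (chr2:181314501-181314750, minus strand), the next from Elavl3 (chr9:22052024-22052273, minus strand) and the last from Elavl4 (chr4:110287528-110287777, minus strand).
Stmn3: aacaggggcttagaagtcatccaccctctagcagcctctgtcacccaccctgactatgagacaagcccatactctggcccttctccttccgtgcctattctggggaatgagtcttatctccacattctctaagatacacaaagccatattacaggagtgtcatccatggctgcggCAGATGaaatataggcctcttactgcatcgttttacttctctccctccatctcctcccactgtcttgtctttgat
Elavl3: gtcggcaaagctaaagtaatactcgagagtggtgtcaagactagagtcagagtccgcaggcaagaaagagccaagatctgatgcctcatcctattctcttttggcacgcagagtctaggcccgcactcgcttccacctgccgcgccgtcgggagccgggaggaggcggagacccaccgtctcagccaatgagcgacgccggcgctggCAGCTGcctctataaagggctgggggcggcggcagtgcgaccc
Elavl4: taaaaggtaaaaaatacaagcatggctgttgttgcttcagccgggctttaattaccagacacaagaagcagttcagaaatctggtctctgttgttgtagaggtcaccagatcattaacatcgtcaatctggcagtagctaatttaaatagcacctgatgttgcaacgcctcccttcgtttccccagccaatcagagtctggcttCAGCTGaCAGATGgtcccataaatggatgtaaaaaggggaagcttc
The Stmn3 window held CAGATG 75 bases before the start, the Elavl3 window CAGCTG 43 bases before it, and the Elavl4 window both, at 46 and 39 bases, with 1 base between them. The Elavl4 window shown is 1 of 4 for that gene, at different starts. Of the 4, 3 hold a match, and the one at chr4:110351912-110352161 holds neither sequence and no CANNTG. The window shown overlaps the one at chr4:110287512-110287761, so the same CAGCTG and CAGATG are counted in both. Over 32851 promoter windows of the same length, 13% held CAGCTG and 14.44% held CAGATG, while 66.22% held some CANNTG. The windows of Tubb3 and Dcx held neither CAGCTG nor CAGATG, which says only that these letters are not in the 250 bases searched. A match is a stretch of letters and not evidence that a factor binds there.

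Cells were sorted into classes by counting which markers had at least 1 UMI, and no member gene was a marker. Olfactory progenitors held at least 2 progenitor markers, such as Neurog1 and Neurod1, and at most 2 of the 10 pan-neuronal markers. Immature olfactory neurons held at least 3 pan-neuronal and at least 2 of 9 olfactory markers without Omp, and Omp-positive olfactory neurons were the same with Omp. Neurons that met a count of 3 among Prph, Gnrh1, Nhlh2, Gal, Prokr2 and Cntn2 were taken out first. This last gate was meant for the terminal nerve, but 21 of its 22 cells in WT replicate 1 and all 86 in Prokr2Cre library 2 also held at least 2 olfactory markers, and a Gnrh1 UMI was found in 0 of those 22, which allows up to 13.6% of cells with a UMI, and in 11.6% of the 86. They are therefore called by their rule, the neurons with Prph-type markers. Classes outside the neuronal lineage, here mesenchyme, bone, cartilage, endothelial cells, pericytes, macrophages, glia and epithelium, held at least 3 of 6 markers of 1 list and more than of any other. All cells outside the lineage, with or without such a class, held at most 1 pan-neuronal, 1 progenitor and 1 olfactory marker.

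**Figure D1:**
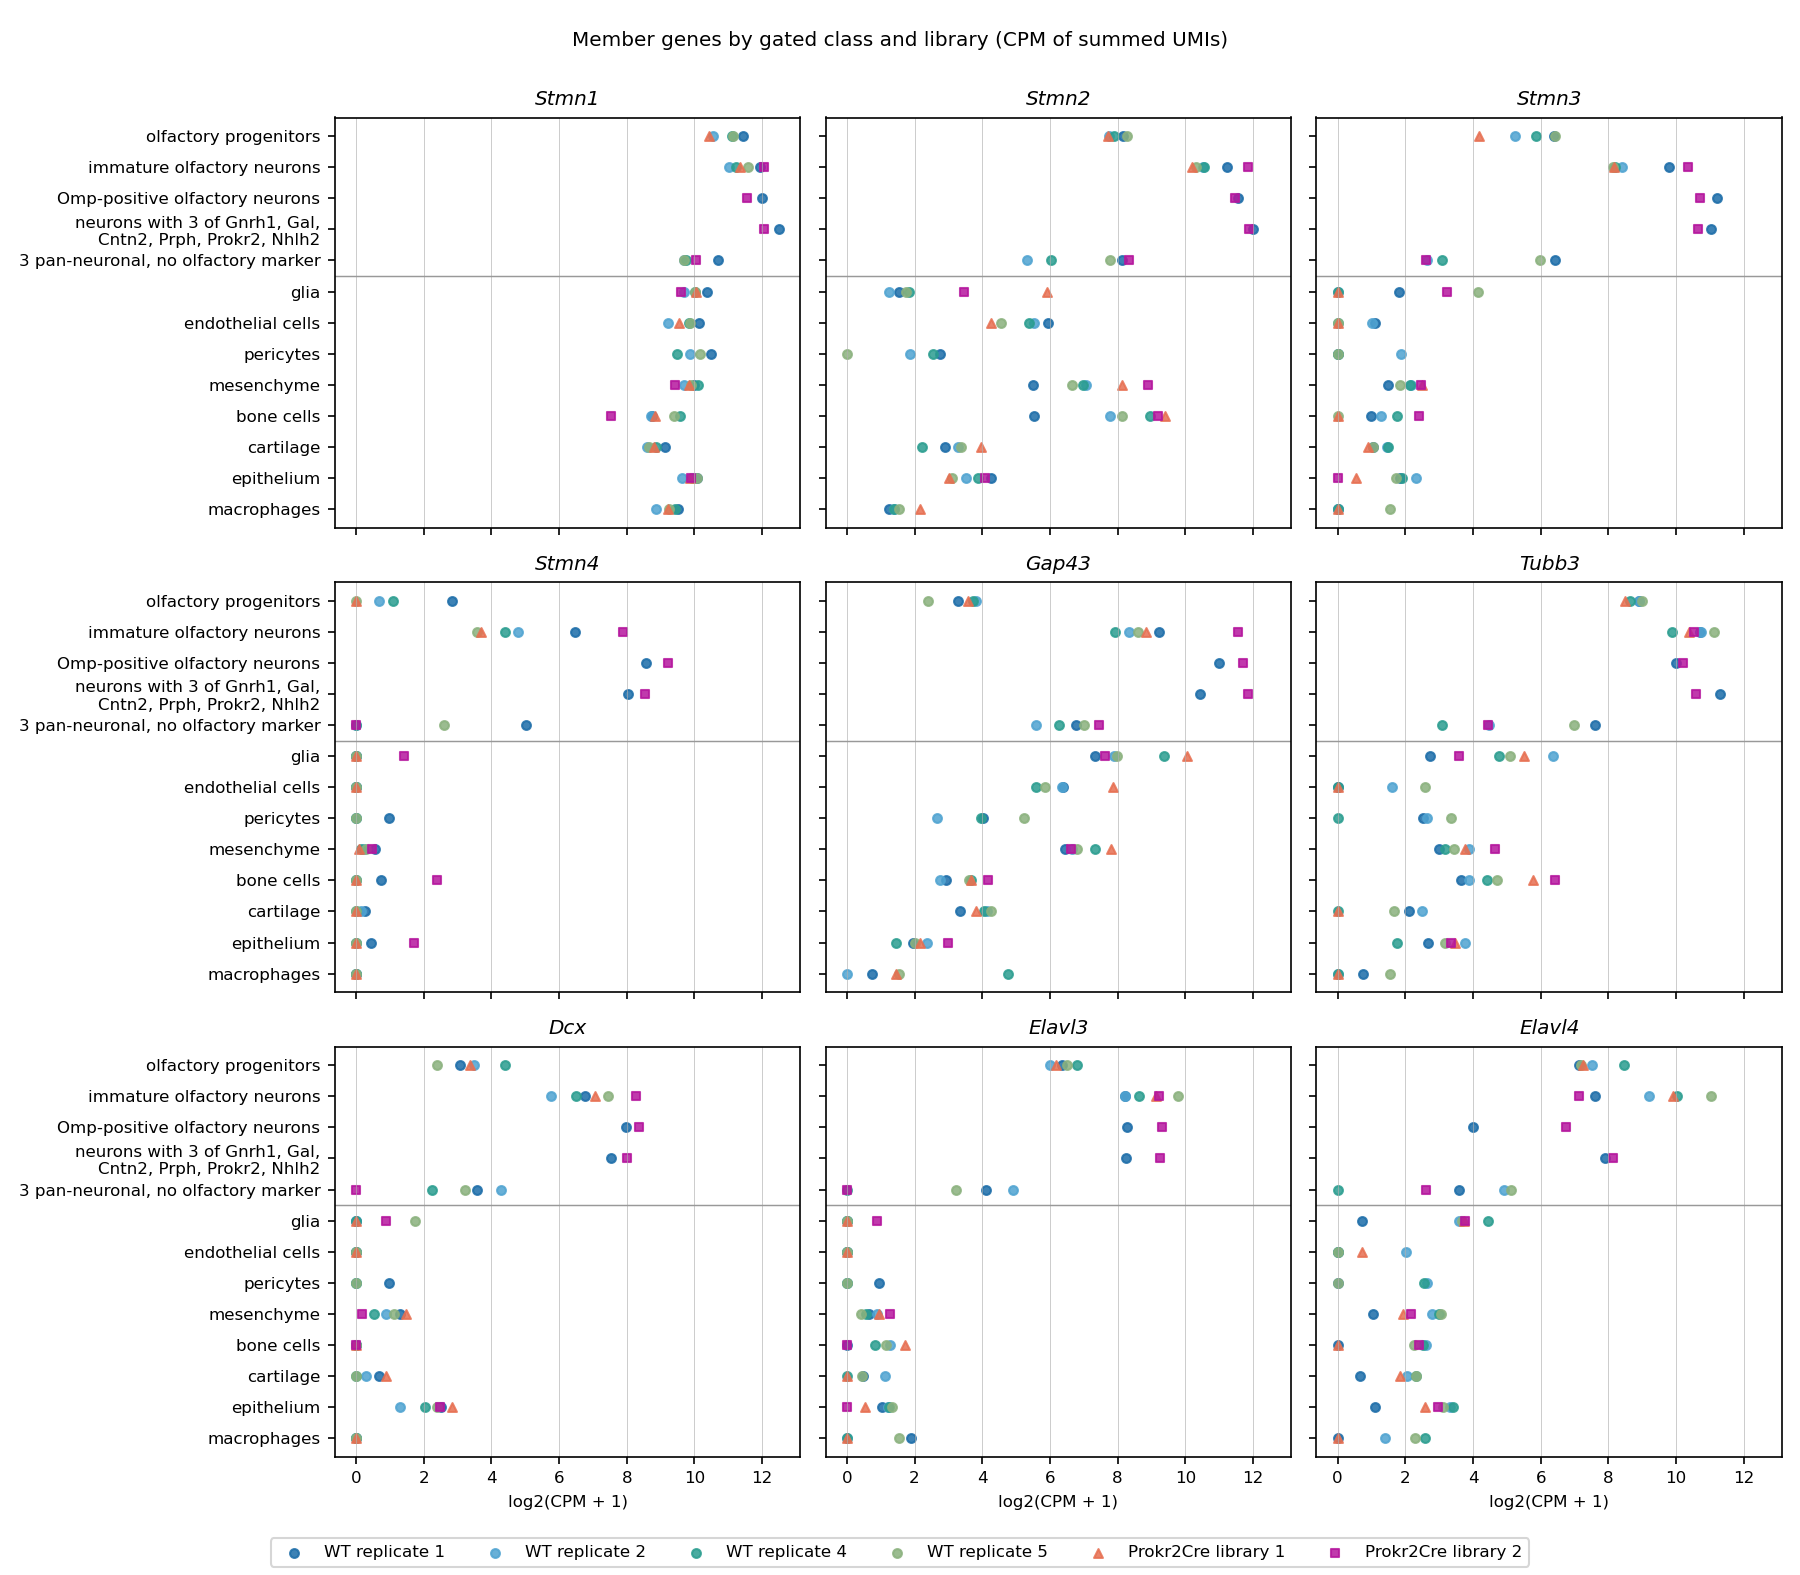
Level of each member (log2 of CPM + 1) in each gated class, by library; points are WT replicates and Prokr2Cre libraries with at least 10 cells of the class. Stmn1 was found in every class plotted, with 388 CPM or more in the WT cartilage cells, whereas Stmn4 stayed under 1 CPM in the mesenchyme of all 6 libraries.

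Against its own level in immature olfactory neurons, each of 6 members was low outside the neuronal lineage, while Stmn1, Stmn2 and Gap43 were less so and go against the label of a neuronal gene list. In all WT cells outside the neuronal lineage (26471 cells over 4 replicates), Stmn3 stood at 2.69 ± 0.411 CPM (mean ± SD, n = 4), Stmn4 at 0.284 ± 0.293, Tubb3 at 9.74 ± 2.27, Dcx at 1.19 ± 0.611, Elavl3 at 0.704 ± 0.206 and Elavl4 at 5.09 ± 2.76. Stmn1 stood at 877 ± 124 CPM there, Stmn2 at 77.9 ± 34.7 and Gap43 at 80.9 ± 31.6. In immature olfactory neurons the same 9 genes stood, in this order, at 446 ± 289, 36.3 ± 34.6, 1639 ± 533, 106 ± 50.7, 467 ± 278, 977 ± 819, 2867 ± 821, 1669 ± 515 and 387 ± 153 CPM. Every member was thus higher in immature olfactory neurons than outside the lineage in each of the 4 WT replicates, by a margin that was smallest for Stmn1. This difference is given without a test because the members were picked as neuronal genes. Part of its direction is also set by the gates, which ask for at most 1 pan-neuronal marker outside the lineage and at least 3 in a neuron.

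The first tested comparison set olfactory progenitors against immature olfactory neurons of the same nose, which asks where along the path from progenitor to neuron the genes come on. 8 of the 9 members were lower in progenitors (edgeR's quasi-likelihood test with the replicate as a block, Benjamini-Hochberg adjusted p under 0.05 over all genes), against 20.7% of the 9507 genes tested that were called in either direction, 11.3% called lower and 9.39% called higher. All 9 members passed the filter on low counts, and their median log2 fold change was -2.56, against -0.00 over all genes tested. Stmn4 passed that filter only through its counts in immature neurons, the class where it is high, so its call carries little weight. The classes are not independent of neuronal genes, since the gates ask for at most 2 pan-neuronal markers in a progenitor and at least 3 in a neuron, so part of the direction is set by the gates. WT replicates 1, 2, 4 and 5 held 96, 121, 68 and 20 progenitors and 90, 80, 118 and 11 immature neurons. The p-values measure the spread between these noses as labelled, and nothing in the labels says whether they shared a litter.

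Gap43, the growth cone gene, had the largest difference. It stood at 8.79, 13.1, 12.3 and 4.27 CPM in the progenitors of WT replicates 1, 2, 4 and 5, and at 598, 324, 239 and 388 CPM in their immature neurons. The groups did not overlap, and Gap43 was near absent in progenitors of every replicate, with 47 UMIs over 305 cells. The log2 fold change was -5.00 (SE 0.28, adjusted p = 1.3e-06). In Prokr2Cre library 1, which did not enter the test, the levels were 11 and 458 CPM.

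Among the stathmins, the neuronal forms were lower in progenitors and Stmn1 did not pass the test. Stmn2 stood at 284, 212, 236 and 312 CPM in progenitors and at 2426, 1479, 1500 and 1272 CPM in immature neurons of WT replicates 1, 2, 4 and 5, which gave -2.56 on the log2 scale (SE 0.17, adjusted p = 3.6e-06). The Stmn2 groups did not overlap, but progenitors were well above 0, and 26.5% to 35.0% of them held a Stmn2 UMI, against 81.8% to 95.8% of immature neurons. Stmn3 stood at 82.5, 37.0, 57.1 and 85.4 CPM in progenitors and at 878, 337, 292 and 278 CPM in immature neurons (log2 fold change -2.70, SE 0.24, adjusted p = 1.6e-05). WT replicate 1 was far above the others for Stmn3 in immature neurons, and no progenitor value reached the lowest neuron value. Stmn4 stood at 6.08, 0.596, 1.12 and 0 CPM in progenitors, which is 11 UMIs in all, and at 87.4, 26.9, 20.1 and 10.9 CPM in immature neurons (log2 fold change -4.03, SE 0.37, adjusted p = 1.9e-05).

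Stmn1, the stathmin of dividing cells, was high on both sides. Its levels were 2744, 1485, 2206 and 2243 CPM in progenitors and 3919, 2072, 2385 and 3091 CPM in immature neurons of WT replicates 1, 2, 4 and 5. Progenitors were lower within each of the 4 noses, yet the groups overlapped. The log2 fold change of -0.27 (SE 0.12) had an adjusted p of 0.145, and it passed the threshold when WT replicate 3 replaced replicate 4 (-0.36, adjusted p = 0.0281) and when the cells with the highest doublet scores were removed (-0.36, adjusted p = 0.0474).

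The microtubule genes Tubb3 and Dcx were both lower in progenitors. Tubb3 stood at 473, 475, 394 and 513 CPM in progenitors and at 1682, 1711, 934 and 2228 CPM in immature neurons (log2 fold change -1.63, SE 0.15, adjusted p = 2.2e-05). These groups did not overlap, and 55.4% to 70.0% of progenitors already held a Tubb3 UMI. Dcx stood at 7.44, 10.1, 20.2 and 4.27 CPM in progenitors against 107, 53.7, 90.3 and 175 CPM in immature neurons (log2 fold change -2.83, SE 0.31, adjusted p = 6.1e-05).

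Of the RNA-binding genes, Elavl3 stood at 80.4, 62.6, 110 and 89.7 CPM in progenitors and at 296, 299, 396 and 879 CPM in immature neurons (log2 fold change -2.09, SE 0.20, adjusted p = 2.2e-05). No progenitor value of Elavl3 reached a neuron value. Elavl4 stood at 138, 181, 353 and 145 CPM in progenitors and at 194, 584, 1039 and 2091 CPM in immature neurons. Progenitors were lower in each nose, but the Elavl4 groups overlapped, because the progenitors of replicate 4 lay above the neurons of replicate 1 (log2 fold change -1.64, SE 0.35, adjusted p = 0.00537).

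These last calls depended on where the boundary was drawn. With stricter gates, which ask for 3 progenitor markers and 4 pan-neuronal markers and leave 3 replicates, Tubb3 (log2 fold change -0.16, adjusted p = 0.443) and Elavl3 (-0.45, adjusted p = 0.0913) were no longer called, and Elavl4 changed direction without passing the test (0.30, adjusted p = 0.292). Without the replicate block Elavl4 was not called either (-2.05, adjusted p = 0.0878). Stmn2, Stmn3, Stmn4, Gap43 and Dcx kept their calls under every alternative run. The number of all genes called, 1965, came to 1185 without WT replicate 1, 987 without replicate 2 and 1027 without replicate 4.

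Dividing cells were more frequent among progenitors in 3 of the 4 WT replicates, and less frequent in replicate 5. Cells with at least 3 of 8 cycling genes made up 75.0%, 81.8%, 75.0% and 60.0% of the progenitors of WT replicates 1, 2, 4 and 5, and 26.7%, 45.0%, 41.5% and 72.7% of their immature neurons. At least 3 markers of some list for cells outside the lineage were held by 62 of 96, 97 of 121, 55 of 68 and 11 of 20 progenitors, and by 58 of 90, 44 of 80, 58 of 118 and 7 of 11 immature neurons, a larger share of progenitors in replicates 2 and 4 but not in replicate 5, and nearly the same share in replicate 1. The part of either in the results was not tested. Within progenitors, 2 noses held at least 10 cells without any cycling gene: Stmn2 was 1505 CPM in those of WT replicate 1 and 2161 CPM in those of replicate 2, against 147 and 119 CPM in the cycling progenitors of the same noses. Those groups held 13 and 11 cells, and Gap43 had only 5 and 1 UMIs in them.

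**Figure D2:**
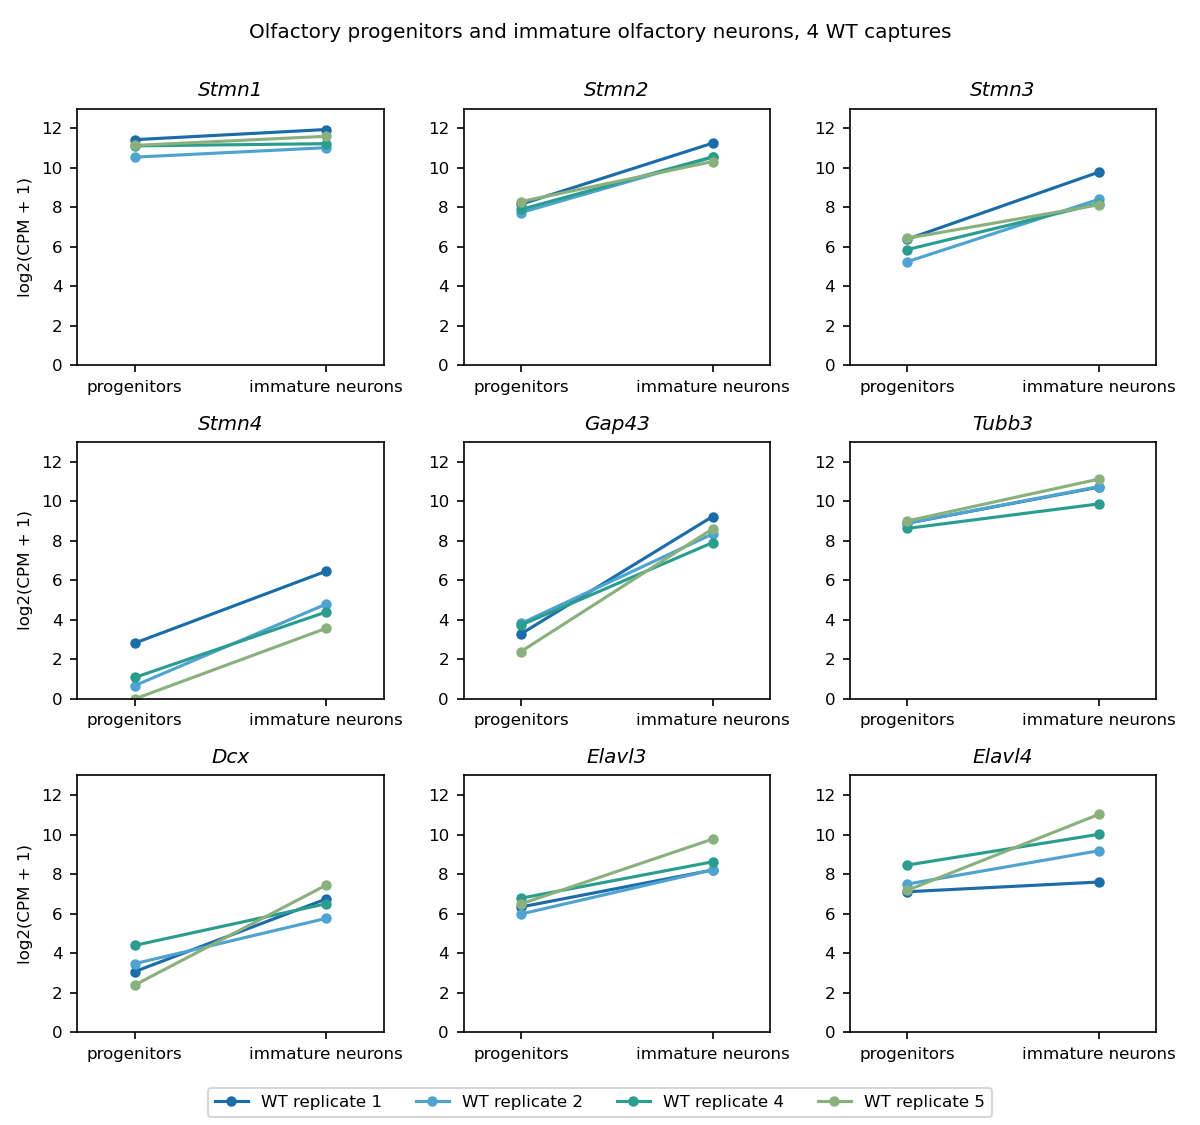
Level of each member (log2 of CPM + 1) in olfactory progenitors and immature olfactory neurons, with a line joining the classes of each WT replicate (n = 4). Lines rise for every member, steeply for Gap43 (log2 fold change -5.00, progenitors over neurons) and hardly for Stmn1 (-0.27).

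The wider list of 23 cytoskeleton and growth genes moved mostly the same way. Of 22 tested, 15 were lower in progenitors and 2 higher, where 11.3% of all genes tested were called lower and 9.39% higher. The median log2 fold change of the 22 was -1.07. The largest falls were in Mapt, the gene of the axonal protein tau (-3.17, SE 0.33), and in Crmp1, a collapsin response mediator (-2.07, SE 0.20). The 2 that rose were the alpha-tubulin gene Tuba1b (0.75, SE 0.14) and Elavl1, the relative of Elavl3 that is expressed in most cells (0.46, SE 0.14). Adjusted p-values were 4.8e-05 for Mapt, 3.3e-05 for Crmp1, 0.00319 for Tuba1b and 0.0339 for Elavl1 by edgeR's quasi-likelihood test.

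Omp-positive olfactory neurons were few, and only WT replicate 1 (29 cells) and Prokr2Cre library 2 (54 cells) held at least 10, so their levels are a description with no test. Gap43 was 2025 CPM in the Omp-positive cells of WT replicate 1 (95% Poisson interval 1898 to 2158, counting error only), against 598 CPM (558 to 641) in its immature neurons. Stmn3 was 2353 CPM against 878, Stmn4 was 375 CPM (321 to 434) against 87.4 (72.4 to 104), and Dcx was 250 CPM against 107 in the same library. Omp-positive cells of this nose thus held more, not less, of these growth genes, as CPM. The 2 classes differed in other ways. Cycling cells made up 6.90% of the Omp-positive cells and 26.7% of the immature neurons of this nose. Prph was found in 93.1% and 53.3% of them, and the part of these in the levels was not tested.

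The order was different for Tubb3 and Elavl4 in WT replicate 1. Tubb3 was 1017 CPM in Omp-positive cells against 1682 CPM in immature neurons, and Elavl4 was 15.0 CPM (95% Poisson interval 6.02 to 30.9) against 194 CPM (172 to 219). Stmn1 (4112 against 3919 CPM), Stmn2 (3008 against 2426 CPM) and Elavl3 (306 against 296 CPM) lay closer together. The other 3 WT replicates held 7, 3 and 2 Omp-positive cells, and in these Elavl4 was 102, 60.3 and 53.7 CPM and Gap43 1904, 1990 and 1664 CPM, below and above the immature neurons of the same noses in each case.

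Prokr2Cre library 2 showed a flatter picture, since its immature neurons already stood near its Omp-positive cells. Gap43 was 3031 CPM (95% Poisson interval 2910 to 3155) in its 51 immature neurons and 3308 CPM (3200 to 3418) in its Omp-positive cells. Stmn2 was 3718 and 2813 CPM, Stmn3 1305 and 1683 CPM, and Elavl4 138 and 106 CPM. In Prokr2Cre library 1, from the same nose, the 17 immature neurons held 458 CPM of Gap43 (396 to 527), 1172 CPM of Stmn2 and 966 CPM of Elavl4, inside or near the WT range. The gated cells differed in other ways: Prph was found in 94.1% of the immature neurons of library 2 and in 23.5% of those of library 1, and cycling cells made up 1.96% and 47.1% of them; the part of these in the levels was not tested.

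The neurons with Prph-type markers carried all 9 members. In WT replicate 1 (22 cells), Stmn1 was 5802 CPM, Stmn2 4086 CPM, Gap43 1387 CPM (95% Poisson interval 1268 to 1514), Tubb3 2497 CPM and Elavl4 238 CPM. In Prokr2Cre library 2 (86 cells, of which 82.6% held Prokr2), Stmn1 was 4211 CPM, Stmn2 3766 CPM, Gap43 3713 CPM (3628 to 3799), Tubb3 1552 CPM and Elavl4 281 CPM. Between these libraries Gap43 differed most and Stmn2 little, and with 1 library of each kind this was not tested. Stmn3 was 2071 and 1591 CPM, Stmn4 263 and 375 CPM, Dcx 185 and 257 CPM and Elavl3 302 and 605 CPM in the same order.

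Elavl4 also differed widely between libraries outside the lineage. In all cells outside the lineage it was 1.04 CPM in WT replicate 1 and 5.69, 6.66 and 6.99 CPM in WT replicates 2, 4 and 5, and 3.24 and 4.89 CPM in the Prokr2Cre libraries. WT replicate 1 was also the lowest WT replicate for Elavl4 in progenitors and immature neurons. That library was counted with Cell Ranger 6.0.1, the other WT replicates with version 7.0.0 and the Prokr2Cre libraries with 6.1.2, per the file headers, and the part of the counting version in these levels was not tested.

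Cells with at least 3 pan-neuronal markers but no olfactory marker and no Omp were the next class compared. They differed from the other neuronal classes in their markers: in WT replicates 1, 2, 4 and 5, 60.0%, 75.0%, 67.9% and 90.6% of the 50, 28, 28 and 32 cells also held at least 3 mesenchyme markers, and Tubb3 was at 0 in 74.0% to 92.9% of them. Their markers were mainly Nefl, Nefm and Celf4, while Myt1l was found in 3.57% to 10.0%. They are called here by their rule only.

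All 9 members were lower in these cells than in immature olfactory neurons, against 23.2% of 8314 genes called in either direction and 12.6% called lower. The members were picked as neuronal genes, and most of these cells also held mesenchyme markers. The comparison is thus close to that of neurons with cells outside the lineage, and its direction is no independent result. The median log2 fold change of the members was -3.49, against -0.02 over all genes tested. Elavl4 had the largest difference, with 11, 28.9, 0 and 33.6 CPM in WT replicates 1, 2, 4 and 5 against 194, 584, 1039 and 2091 CPM in immature neurons (log2 fold change -5.35, SE 0.47, adjusted p = 2.5e-04). No Elavl4 value of these cells reached a neuron value, and the same was true of every other member but Stmn4. Tubb3 was at 192, 21.0, 7.56 and 124 CPM in these cells, which was -4.48 on the log2 scale (SE 0.49, adjusted p = 5.6e-04).

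Stmn1 and Gap43 fell least in these cells together with Stmn4. Stmn1 stood at 1640, 831, 854 and 831 CPM, with replicate 1 well above the rest (log2 fold change -1.45, SE 0.14, adjusted p = 3.7e-04), and Gap43 at 108, 47.3, 75.6 and 128 CPM (-2.09, SE 0.23, adjusted p = 6.3e-04). The mesenchyme of the same noses held 85.7, 99.5, 159 and 110 CPM of Gap43. Stmn4, at 31.5, 0, 0 and 5.04 CPM, differed by -1.96 on the log2 scale (SE 0.52, adjusted p = 0.025) that was not called without WT replicate 4 (-1.80, adjusted p = 0.079) or without the replicate block (-1.76, adjusted p = 0.295). The remaining log2 fold changes were -3.64 for Stmn2, -3.49 for Stmn3, -3.23 for Dcx and -4.89 for Elavl3. The number of all genes called, 1931, came to 1007 without replicate 1 and 976 without replicate 4.

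Of the 23 other cytoskeleton and growth genes, 22 were tested here, 13 were lower and none was higher, where 12.6% of all genes tested were called lower and 10.7% higher. The largest falls were in Dpysl5, a collapsin response mediator (log2 fold change -3.88, SE 0.68), and in Elavl2, a neuronal relative of the members Elavl3 and Elavl4 (-3.72, SE 0.36).

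Outside the neuronal lineage, both Stmn2 and Gap43 had most of their UMIs in mesenchyme, and their levels differed in opposite directions between bone cells and glia. Over the 4 WT replicates, 15109 Stmn2 UMIs and 15987 Gap43 UMIs came from 26471 cells, and mesenchyme held 10629 of the former and 12279 of the latter. The 26471 cells include cells that met no class, so the named classes do not add up to the whole. In WT replicates 1, 2, 4 and 5, 725 of 7046, 1401 of 9947, 1236 of 6518 and 506 of 2960 outside cells held a Stmn2 UMI, and 1680, 2163, 2391 and 1039 held a Gap43 UMI. The cells with both numbered 258, 509, 531 and 267. In Prokr2Cre libraries 1 and 2, 470 of 1625 and 389 of 809 outside cells held Stmn2.

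By the WT mean, Stmn2 was highest in bone cells, gated by osteoblast genes such as Runx2 and Sp7, and next in mesenchyme. In WT replicate 1 this order did not hold, since endothelial cells, at 60.5 CPM, were above both. Stmn2 stood at 45.2, 217, 500 and 281 CPM in the bone cells of WT replicates 1, 2, 4 and 5 and at 676 and 589 CPM in those of Prokr2Cre libraries 1 and 2. In mesenchyme it stood at 44.2, 132, 126 and 99.4 CPM in WT and at 280 and 479 CPM in the Prokr2Cre libraries. Bone cells were above mesenchyme in each of the 6 libraries, by almost nothing in WT replicate 1, and both Prokr2Cre libraries were above every WT replicate in both classes.

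Endothelial cells stood at 60.5, 45, 41 and 22.3 CPM in WT replicates 1, 2, 4 and 5 (mean 42.2 ± 15.7, SD, n = 4), above mesenchyme in replicate 1 and below it in the other 3. In replicate 1, 59 of the 161 endothelial UMIs were in 1 of 94 cells. Epithelium stood at 12.5 ± 4.51 CPM and cartilage at 7.05 ± 2.59 CPM, and these also overlapped. Pericytes at 3.31 ± 2.56, glia at 2.06 ± 0.542 and macrophages at 1.64 ± 0.228 CPM closed the order without differing from their neighbours beyond the spread.

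Gap43 followed another order, led by glia, which were gated by glial genes such as Sox10. It stood at 161, 236, 667 and 253 CPM in the glia of WT replicates 1, 2, 4 and 5, and at 1064 and 196 CPM in those of Prokr2Cre libraries 1 and 2. In mesenchyme it stood at 85.7, 99.5, 159 and 110 CPM in WT and at 222 and 96.9 CPM in the Prokr2Cre libraries. Glia were above mesenchyme in each of the 6 libraries, and the lowest WT glia value lay just above the highest WT mesenchyme value. The WT mean of glia, 329 ± 229 CPM, came to 217 CPM without replicate 4 and to 204 CPM with stricter gates.

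After glia and mesenchyme (114 ± 32.0 CPM) came endothelial cells at 67.1 ± 18 CPM, below mesenchyme in every WT replicate. Pericytes at 18 ± 13.3, cartilage at 14.9 ± 4.01, bone cells at 8.82 ± 3.08, macrophages at 7.24 ± 12.8 and epithelium at 2.96 ± 0.992 CPM were lower. The macrophage mean came from replicate 4, at 26.3 CPM, with 0.678, 0 and 1.92 CPM in the others. The positions of bone and glia were thus opposite for the 2 genes by WT mean: bone cells were first for Stmn2 and near the bottom for Gap43, and glia were first for Gap43 and near the bottom for Stmn2. In glia the whole of the WT Stmn2 signal was 6 UMIs over 304 cells, against 788 Gap43 UMIs.

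**Figure D3:**
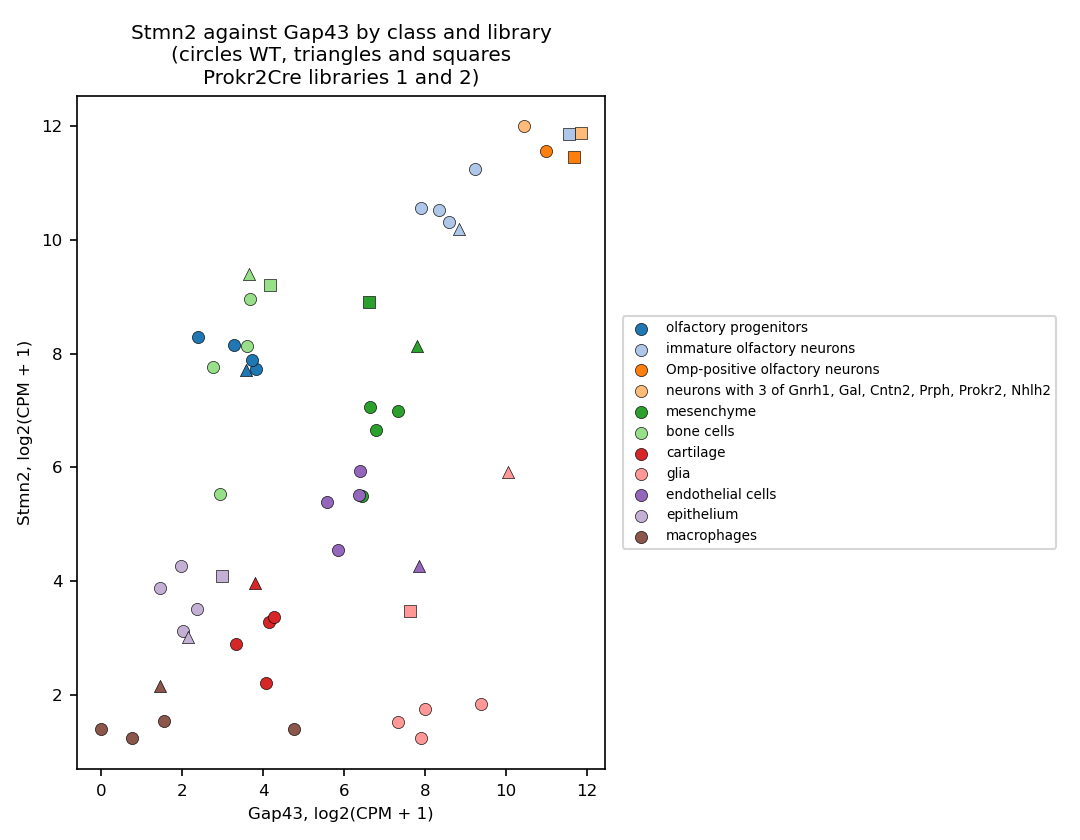
Stmn2 against Gap43, both as log2(CPM + 1), with a point for each class in each library; circles are WT replicates, triangles Prokr2Cre library 1 and squares Prokr2Cre library 2. Neurons lie at the upper right, bone cells at the left with much Stmn2 and little Gap43 (261 and 8.82 CPM in WT), and glia at the lower right with much Gap43 and little Stmn2 (329 and 2.06 CPM in WT).

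Shares of cells with a UMI depend on depth, so each cell was also thinned to 2000 UMIs. Before thinning, 18.8% of mesenchyme cells held a Stmn2 UMI on average over the WT replicates, and after thinning 10.8% ± 4.04 (SD, n = 4). Bone cells went from 48.4% to 28.3% ± 16.1, and endothelial cells from 18.2% to 3.61% ± 2.74. Macrophages, which should lack the gene, stood at 2.07% before and 1.25% ± 2.5 after thinning, with a median of 8280 to 15776 UMIs per cell against 5103.5 to 11539.5 in mesenchyme. The thinned macrophage mean rests on 1 of 20 cells in WT replicate 5, with 0 in the other 3 replicates. Glia, at 2.49% and 0.581% ± 1.16, lay slightly above macrophages before thinning and below them after it, by less than the SD between replicates. No WT glial cell and no WT macrophage held more than 1 Stmn2 UMI. In Prokr2Cre library 2, 5 of 57 glia held 12 Stmn2 UMIs, with up to 8 in a single cell. The source of the glial UMIs was not tested. Cartilage went from 2.88% to 1.06% ± 0.394 and epithelium from 8.01% to 2.20% ± 1.13. These are given as values only, since single cells held up to 21 Stmn2 UMIs in WT cartilage and up to 19 in WT epithelium.

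For Gap43 the thinned share was 32.7% ± 17.2 in glia and 17.7% ± 4.27 in mesenchyme, against 1.74% ± 2.36 in macrophages. Before thinning they were 50.6%, 40.8% and 3.43%. Endothelial cells stood at 12.4% ± 2.40 after thinning, down from 38.8%. The macrophage mean rests on 1 of 51 cells in WT replicate 4 and 1 of 20 in replicate 5, with 0 in the other replicates. Epithelium stood at 0.827% ± 0.919, above macrophages in WT replicates 1 and 2 and below them in replicates 4 and 5. Bone cells, at 2.30% ± 0.544, lay within the range of 0% to 5% over the macrophages of the WT replicates. Thinning left out 92 mesenchyme cells, 4 bone cells, 2 glia, 23 macrophages, 113 cartilage and 35 epithelial cells with under 2000 UMIs. In the Prokr2Cre libraries the thinned share of mesenchyme cells with Stmn2 was 22.1% and 35.4%, and with Gap43 28.6% and 15.1%.

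**Figure D4:**
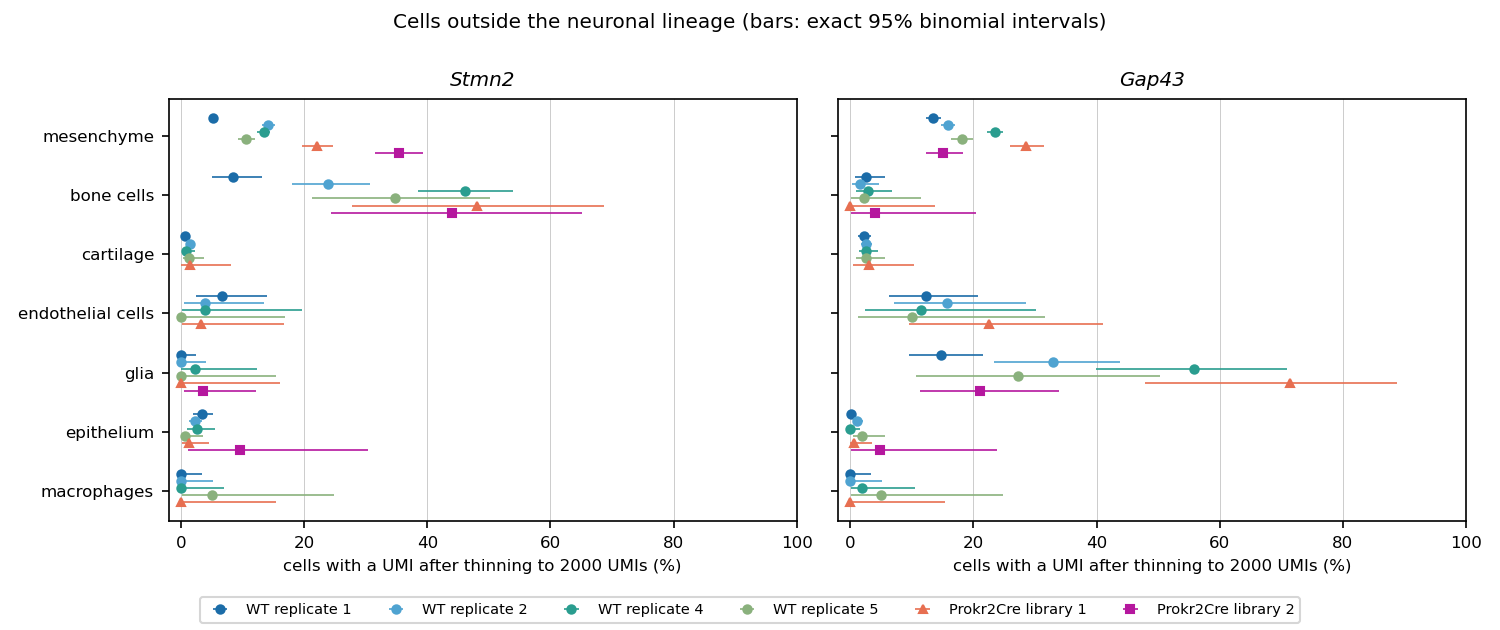
Percent of cells with a Stmn2 or Gap43 UMI after thinning every cell to 2000 UMIs, by class outside the neuronal lineage; points are WT replicates and Prokr2Cre libraries, and bars are exact 95% binomial intervals. Stmn2 reached 48% of bone cells in Prokr2Cre library 1 and 46.2% in WT replicate 4, while Gap43 reached 71.4% of glia in Prokr2Cre library 1.

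The Stmn2 UMIs of mesenchyme were unevenly spread over cells, most so in the WT replicates. The 10% of cells richest in Stmn2 held 97.3%, 78.8%, 77.8% and 83.7% of its UMIs in WT replicates 1, 2, 4 and 5, and 66.1% and 50.9% in Prokr2Cre libraries 1 and 2. In WT replicate 1, where 11.2% of mesenchyme cells held any Stmn2 UMI, a share near the whole was bound to result, while in Prokr2Cre library 2 53% held one. At least 3 Stmn2 UMIs were found in 4.77%, 10.8%, 11.7% and 12.6% of the WT mesenchyme cells and in 26.6% and 42.4% of those of the Prokr2Cre libraries, with up to 35, 26, 25, 36, 61 and 70 in a single cell. For Gap43 the richest 10% of mesenchyme cells held 46.9% to 59.0% of its UMIs in WT and 41% and 53.2% in Prokr2Cre libraries 1 and 2. That was less than for Stmn2 in the 4 WT replicates and in library 1, but not in library 2.

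The Stmn2 UMIs of mesenchyme did not come in the proportions seen in neurons. Mesenchyme held 74.7, 153, 258 and 284 Stmn2 UMIs per Elavl3 UMI in WT replicates 1, 2, 4 and 5, where immature neurons held 8.19, 4.95, 3.79 and 1.45. In the Prokr2Cre libraries the ratios were 301 and 339 in mesenchyme and 2.08 and 6.25 in immature neurons. Gap43 gave 145, 115, 325 and 314 UMIs per Elavl3 UMI in WT mesenchyme, against 2.02, 1.09, 0.605 and 0.441 in immature neurons. The mesenchyme ratios were above the neuron ratios in all 6 libraries, although only 8 to 23 Elavl3 UMIs per library stand under them. Barcodes with under 500 genes, whose content was not tested, held Stmn2 at 62.7, 67.2, 55.8 and 62.4 CPM and Gap43 at 28.7, 17.3, 34.4 and 27.2 CPM in the WT libraries. Their Stmn2 level was above that of WT replicate 1's mesenchyme and below that of the other WT replicates, and the part of free RNA in the levels was not tested.

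Some of the levels outside the lineage rest largely on 1 cell. The 24 Stmn2 UMIs in the glia of Prokr2Cre library 1, the base of a level of 59.5 CPM, were all in 1 of 21 cells. In cartilage a single cell held 16 of the 17 Stmn2 UMIs in Prokr2Cre library 1 and 21 of the 26 in WT replicate 5. In the endothelial cells of WT replicate 2, 26 of 44 were in 1 cell. The 24 Dcx UMIs in the muscle cells of WT replicate 1 (23.3 CPM) were in 8 of 60 cells, with 12 of them in 1 cell.

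Glia were also compared with mesenchyme for the members that the choice of the list did not concern. Tubb3 was higher in glia, at 5.69, 81.4, 26.1 and 33.1 CPM in WT replicates 1, 2, 4 and 5 against 6.95, 13.7, 8.04 and 9.88 CPM in mesenchyme. Glia were above mesenchyme in 3 of 4 noses and the groups overlapped, since replicate 1 had less in its glia. Barcodes with under 500 genes held Tubb3 at 32.5, 80.7, 32.2 and 64.1 CPM in the same libraries. Only in replicate 2 were glia above these barcodes, and the part of free RNA in the glial levels was not tested. The log2 fold change was 1.62 (SE 0.35, adjusted p = 0.00102 by edgeR's quasi-likelihood test), against 30.9% of 13564 genes called in this comparison. Without replicate 2 it was 1.01 (adjusted p = 0.0874), and without the replicate block 1.89 (adjusted p = 0.0506), so the call rests on that replicate and on the pairing.

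No other member of those tested here passed. Stmn1 stood at 1315, 824, 1025 and 1027 CPM in glia and at 1022, 830, 1089 and 958 CPM in mesenchyme (log2 fold change 0.10, SE 0.10, adjusted p = 0.480). On the log2 scale Elavl4 differed by 0.90 (SE 0.42, adjusted p = 0.110), Stmn3 by 0.51 (SE 0.72, adjusted p = 0.654) and Dcx by -1.76 (SE 1.41, adjusted p = 0.382). Stmn4 and Elavl3 had a UMI in 0 of 304 WT glia, which allows a share of up to 0.987% of cells with a UMI at this depth, not of cells expressing the gene, and did not pass the filter on low counts. Of the 23 other cytoskeleton and growth genes, 9 were higher in glia and 3 lower, where 12.9% of all genes tested were called higher and 18% lower. Map2, a microtubule-associated gene of dendrites (2.11, SE 0.16), and Dpysl3 (1.85, SE 0.18) rose most, and Basp1, a membrane partner of Gap43 in growth cones (-1.95, SE 0.13), and the motor gene Kif5c (-1.32, SE 0.30) fell most.

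Stmn1 was higher in cycling than in non-cycling mesenchyme. In mesenchyme it stood at 2206, 1488, 1866 and 1946 CPM in the cycling cells of WT replicates 1, 2, 4 and 5, which held at least 3 of 8 cycling genes, and at 442, 474, 558 and 532 CPM in cells with none of them. The groups were far apart, at 1.99 on the log2 scale (SE 0.07, adjusted p = 5.8e-12). In this comparison 49.9% of the 13452 genes tested were called, and 25.3% of those tested were called higher in cycling cells, so a call by itself is common. The Prokr2Cre libraries, which did not enter the test, held 1540 and 1373 CPM in cycling and 469 and 467 CPM in non-cycling mesenchyme.

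The same direction was seen for Stmn1 in other classes, as a description. In cartilage it was 1219, 892, 1262 and 1165 CPM in cycling and 133, 122, 138 and 116 CPM in non-cycling cells of WT replicates 1, 2, 4 and 5. In epithelium it was 1375, 954, 1180 and 1451 CPM against 554, 442, 464 and 585 CPM. In bone cells the cycling values lay between 828 and 1412 CPM and the non-cycling values between 114 and 387 CPM. Olfactory progenitors did not follow: in the 2 noses with at least 10 progenitors without a cycling gene, Stmn1 was 3678 and 1859 CPM in these and 2690 and 1483 CPM in the cycling ones.

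**Figure D5:**
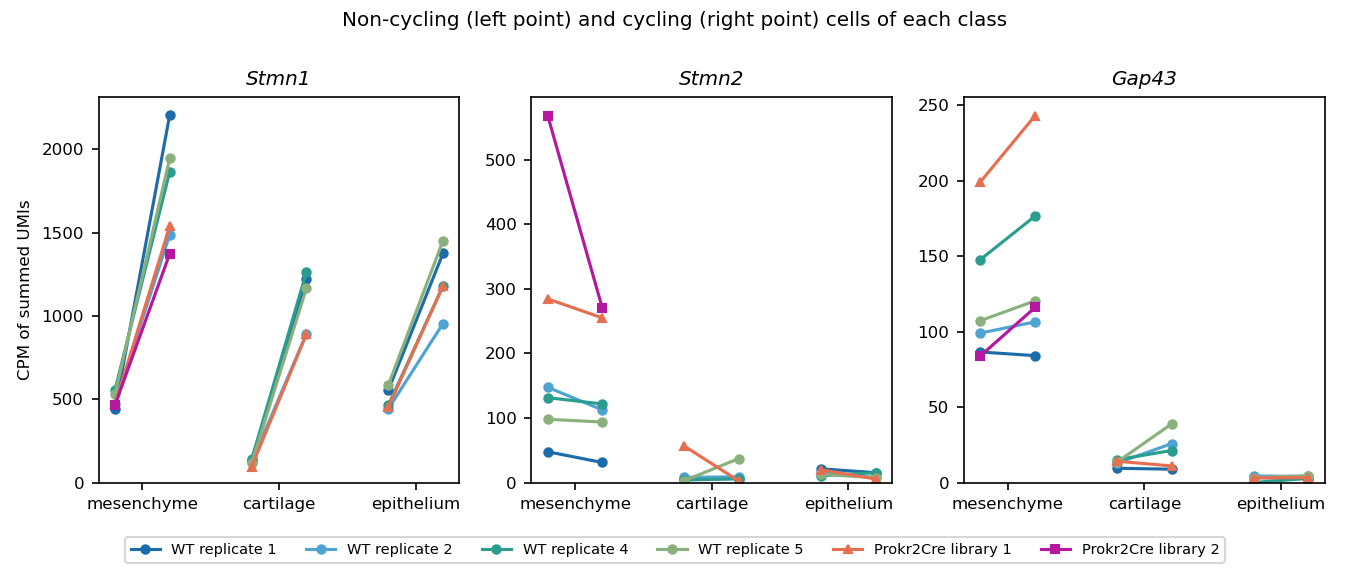
Stmn1, Stmn2 and Gap43 (CPM, linear axes that differ between panels) in non-cycling (left) and cycling (right) cells by class, a line joining the cells of each library. Stmn1 was higher in cycling mesenchyme of all 6 libraries (1877 against 501 CPM on average in WT), while the WT ranges of Stmn2 and Gap43 overlapped between cycling and non-cycling mesenchyme.

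Stmn2 and Gap43, on which the choice of the list rested, are described in cycling mesenchyme without a test. Apart from Stmn1, the other members tested there did not pass by edgeR's quasi-likelihood test. On the log2 scale Stmn3 differed by -0.14 (SE 0.22, adjusted p = 0.620), Tubb3 by 0.22 (SE 0.21, adjusted p = 0.406) and Elavl4 by -0.10 (SE 0.17, adjusted p = 0.667). Stmn4, Dcx and Elavl3 did not pass the filter on low counts. Stmn2 stood at 89.7 ± 40.8 CPM in cycling and 106 ± 44.1 CPM in non-cycling mesenchyme (n = 4), and Gap43 at 122 ± 39.4 and 110 ± 26.5 CPM. Stmn2 was lower in cycling cells in 4 of 4 noses and Gap43 higher in 3 of 4. Of the 23 other genes, 11 were higher and 6 lower in cycling cells, where 25.3% of all genes tested were called higher and 24.6% lower. The beta-tubulin gene Tubb6 (2.47, SE 0.09) and the alpha-tubulin gene Tuba1b (2.00, SE 0.03) rose most, and Dpysl4 (-0.59, SE 0.13) and Elavl2 (-0.45, SE 0.17) fell most.

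Genes with the most similar pattern over the 15 classes were searched among 6726 genes that reached 50 CPM in some class, by Pearson's r of log2(CPM + 1) class means. The classes share libraries and the neuronal classes share cell types, so r is a description. Stmn3 was most like Celf3, an RNA-binding gene of the nervous system (r = 0.986), and Elavl3 most like Srrm4, a neuronal splicing regulator (r = 0.982), with Celf3 next (0.981). Stmn4 was most like Slc17a6, the vesicular glutamate transporter gene (r = 0.981), Tubb3 like Srrm4 (0.953) and Dcx like Arhgdig (0.946). Elavl4 was most like Stk33 (0.943), which was highest in progenitors, and its relative Elavl2 came next (0.937).

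Stmn1 was most like the proteasome gene Psmc5 (r = 0.979), which is expressed in all cells. The 15 classes include 12 erythroid cells of WT replicate 5, where Stmn1 was 36.6 CPM. The next lowest class mean was 453 CPM, in cartilage, and the weight of the erythroid class in r was not tested. Stmn2 was most like Spock1, a proteoglycan gene (0.944), followed by Apba2 (0.930) and Ooep (0.925), and Gap43 like the tropomodulin gene Tmod2 (0.931), followed by Caly (0.896) and Prnp (0.884). Among the members themselves, Stmn3 and Stmn4 were closest to each other (r = 0.963 over 15 classes), and Stmn2 and Gap43 had r = 0.711.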

How the data were processed

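The deposited matrices hold raw UMI counts per gene and barcode, with no normalization by the authors. Per the submitters' processing notes, Cell Ranger 4, Seurat 4.3.0 and build mm10 were used; per the file headers, counting used Cell Ranger 6.0.1, 6.1.2 or 7.0.0. Whether intronic reads were counted, and the strand setting, are not given in the sources used here. Genes with an identifier common to all libraries and a unique symbol were used; they hold over 99% of the UMIs of each library. The olfactory marker Trpc2 has no such identifier, so 9 of 10 olfactory markers were used. Some markers of the gates are not reported here.

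The cells kept had 500 or more genes and no more than 10% of UMIs from mitochondrial genes. Scrublet (scanpy 1.11.5) marked under 0.5% of barcodes as doublets in every library and was taken not to have worked, so doublets were removed only as an alternative, at 0.8% per 1000 barcodes. Raw UMI counts were summed per replicate and class; a replicate entered with at least 10 cells of both classes. Tests used edgeR 4.0.16 (glmQLFit and glmQLFTest, TMM, filterByExpr) in R 4.3.3 with the replicate as a block, and Benjamini-Hochberg adjustment over all genes tested, with the gate genes left out; the procedure was tested on simulated data. Both classes of a comparison come from the same nose, which is the pairing. DESeq2 1.42.0 was an alternative, as were RLE scaling, no filter on low counts, no block, stricter gates and cell filters, WT replicate 3 in place of 4, and leaving out each replicate. Intervals are exact at 95%, limits for a count of 0 are 3 counts over the number of cells, and both cover counting error only. The members, the gates and the list of 23 genes were chosen with earlier results of these data known. All 9 members are named in each comparison, and of the 23 genes the 2 with the largest log2 fold changes in each direction among those called. Genes of similar pattern are the first by Pearson's r. Levels of 84 class and gene pairs were screened for a replicate far from the other 3 WT replicates.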

Additional observations from a re-analysis of the deposited data

Results flagged for a closer look

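Each of 84 levels (a gene in a class over 4 WT replicates) was searched for a replicate whose gap to the nearest other, divided by the whole range, passed Dixon's 95% critical value; chance alone gives about 1 in 20 such groups, and 5 were found. Elavl3 in immature olfactory neurons was 879.162 CPM in WT replicate 5, which held 11 such cells, and 296 to 396 CPM in the others. Stmn3 in immature olfactory neurons was 877.916 CPM in WT replicate 1 and 278 to 337 CPM in the others. In cells with at least 3 pan-neuronal and no olfactory marker, Stmn1 was 1639.93 CPM in WT replicate 1 (831 to 854 CPM elsewhere) and Stmn4 31.511 CPM (0 to 5.04 CPM elsewhere). In all cells outside the neuronal lineage, Stmn4 was 0.721 CPM in WT replicate 1 and 0.0935 to 0.173 CPM in the others. WT replicate 1 was the outlying library in 4 of the 5 cases.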

How the results depend on the processing

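Of 355 values of members under alternatives, 328 kept their direction and their side of the threshold. The mean Stmn2 and Gap43 levels outside the lineage moved by less than 1 SD between replicates under every alternative run. Leaving out 1 of 4 replicates cannot move a mean by that much, so for these runs the outcome was fixed in advance. Those runs gave 64.9 to 93.1 CPM for Stmn2 and 66.3 to 90.0 CPM for Gap43. For progenitors against immature neurons, 1965 genes were called, and 1198 with DESeq2, 1252 with strict gates and 987 to 2496 when a replicate was left out. For cells without olfactory markers, 1931 became 2993 with no filter on low counts and 976 to 2067 when a replicate was left out. Leaving out a replicate gave 5611 to 6246 of 6706 calls for cycling mesenchyme and 3155 to 4061 of 4194 for glia.

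Without the replicate block, which pairs classes by nose, the calls came to 254 for progenitors, 917 for cells without olfactory markers, 645 for cycling mesenchyme and 2002 for glia; among the members it ended the calls of Elavl4 in progenitors, of Stmn4 in the cells without olfactory markers and of Tubb3 in glia, and no other given in the report.

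Direction changed for Elavl4 in progenitors with strict gates (0.30). The other reversals concern log2 fold changes that were not called: in cycling mesenchyme, Tubb3 when a replicate was left out (-0.16 without replicate 1, up to 0.36), Stmn3 when a replicate was left out (-0.31 to 0.012) or with doublets removed (0.03), and Elavl4 when a replicate was left out (-0.18 to 0.064) or with WT replicate 3 for 4 (0.016); in glia, Stmn3 with DESeq2 (-0.15), when a replicate was left out (-0.88 to 1.04) or with the stricter cell filter (-1.06). The cause was not tested. Omp-positive against immature neurons had no test, since only 1 WT replicate held 10 cells of both. Strict gates, and leaving out cells with markers of other lists (chosen after seeing the data), could not be fitted for the cells without olfactory markers for the same reason.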

Other observations

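Within mesenchyme, Stmn2 and Gap43 were also split by whether a cell held a UMI of each of 14 single genes, which were chosen after values of these cells had been seen; the values are a description with no test. Stmn2 was lower in cells with the gene in all 6 libraries for 6 of the 14 (Pax9, Mecom, Barx1, Aldh1a2, Cldn11 and Erg) and higher in all 6 for 3 (Sp7, Runx2 and Shox2). Gap43 was lower in all 6 for 7 (Pax9, Mecom, Barx1, Aldh1a2, Erg, Runx2 and Sp7) and higher in all 6 for Osr1 and Twist2. Values are given for Pax9, Sp7 and Osr1, named after their values were seen. Stmn2 was lower in mesenchyme cells with a UMI of Pax9, a gene of facial and dental mesenchyme, than in cells without it in all 6 libraries. The levels with and without Pax9 were 35.4 and 47.8 CPM in WT replicate 1, 23.0 and 151 in replicate 2, 39.2 and 145 in replicate 4, and 20.2 and 127 in replicate 5. In Prokr2Cre libraries 1 and 2 they were 84.2 and 327 CPM and 74.7 and 572 CPM. Stmn2 was higher with Sp7, an osteoblast gene, in all 6 libraries, at 68.1 against 42.4, 166 against 130, 271 against 119 and 190 against 90.3 CPM in the WT replicates, and 560 against 255 and 659 against 446 CPM in the Prokr2Cre libraries.

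Gap43 was higher in mesenchyme cells with Osr1, a gene of connective tissue progenitors, in all 6 libraries. Its levels with and without Osr1 were 145 and 68.7, 148 and 84.3, 238 and 116, and 162 and 86.0 CPM in WT replicates 1, 2, 4 and 5, and 303 and 153 and 151 and 73.7 CPM in Prokr2Cre libraries 1 and 2. With Pax9, Gap43 was lower, at 77.6 against 89.0 CPM in WT replicate 1 and 45.7 against 109 CPM in replicate 2, and it was lower in the other 4 libraries too.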
